A study of Mus musculus with 16 samples.

Results

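Expression of 10 genes of the cardiac calcium cycle was examined in the left ventricle of male mice: Atp2a2, Pln, Ryr2, Casq2, Cacna1c, Slc8a1, Trdn, Asph, Fkbp1b and Hrc. They were taken by gene symbol from the probe table, 10 of 16593 genes with a probe, and have 27 of the 25697 probes of the array. The study held 16 hearts, 1 array each, in 4 genotypes of 4. Littermate controls, called WT in the design text, were set beside Myh6-TRAF2LC mice (TRAF2LC), which carry a TRAF2 transgene, Myh6-IκBαΔN mice (IkBaDN), which carry a mutated IκBα, and mice with both transgenes (double transgenic). Myh6 encodes the alpha myosin heavy chain, and its promoter is commonly used to drive a transgene in heart muscle cells. TRAF2 links receptors of the TNF family to their kinases, while IκBα keeps NF-κB dimers out of the nucleus. Age, strain and litter are not given in the sources used here, and nothing states how the transgenic lines were founded. The title of the series names TRAF2, cardiac protection and non-canonical NF-κB signalling, and the comparisons here ask how far the calcium genes differed between the genotypes.

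In each heartbeat calcium enters the cardiomyocyte through the L-type channel and opens the ryanodine receptor of the sarcoplasmic reticulum, which releases the larger part of the calcium that starts contraction. Relaxation follows when the calcium pump SERCA2a returns calcium to the store and the sodium-calcium exchanger carries the remainder out of the cell. Phospholamban slows the pump until it is phosphorylated, and calsequestrin, triadin and junctin form the calcium-binding complex on the store side of the release channel. Lowered pump activity is a known feature of failing hearts.

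Of the 10 genes, 8 had a probe detected on at least 4 of the 16 arrays, where detected means a detection p under 0.01 against the negative control beads of that array. Both probes of Atp2a2, 3 of the 4 of Cacna1c, 5 of the 14 of Asph and the single probes of Pln, Ryr2, Casq2, Slc8a1 and Hrc met this rule, 15 probes in all. The single probes of Trdn and Fkbp1b were detected on 0 arrays, with lowest detection p-values of 0.084 and 0.129, so no level is given for them. The other 10 untested probes were 9 of Asph and 1 of Cacna1c. None of the 15 tested probes passed an adjusted p of 0.05 in any of the 7 comparisons (limma over all 9449 tested probes, Benjamini-Hochberg adjustment). Of all tested probes, 1.04% passed in TRAF2LC against control, 0.444% in IkBaDN against control, 0.847% in double transgenic against control, 2.91% in double transgenic against TRAF2LC, 0.0106% in double transgenic against IkBaDN, 3.43% in TRAF2LC against IkBaDN and 0.0212% in the interaction of both transgenes. A count of 0 of 15 lies near these shares. At an unadjusted p under 0.05, the members counted 2, 2, 1, 1, 2, 1 and 2 probes in the same order, where the shares over all probes were 10.7%, 7.65%, 10.8%, 15.6%, 5.78%, 16.3% and 6.21%.

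**Figure D1:**
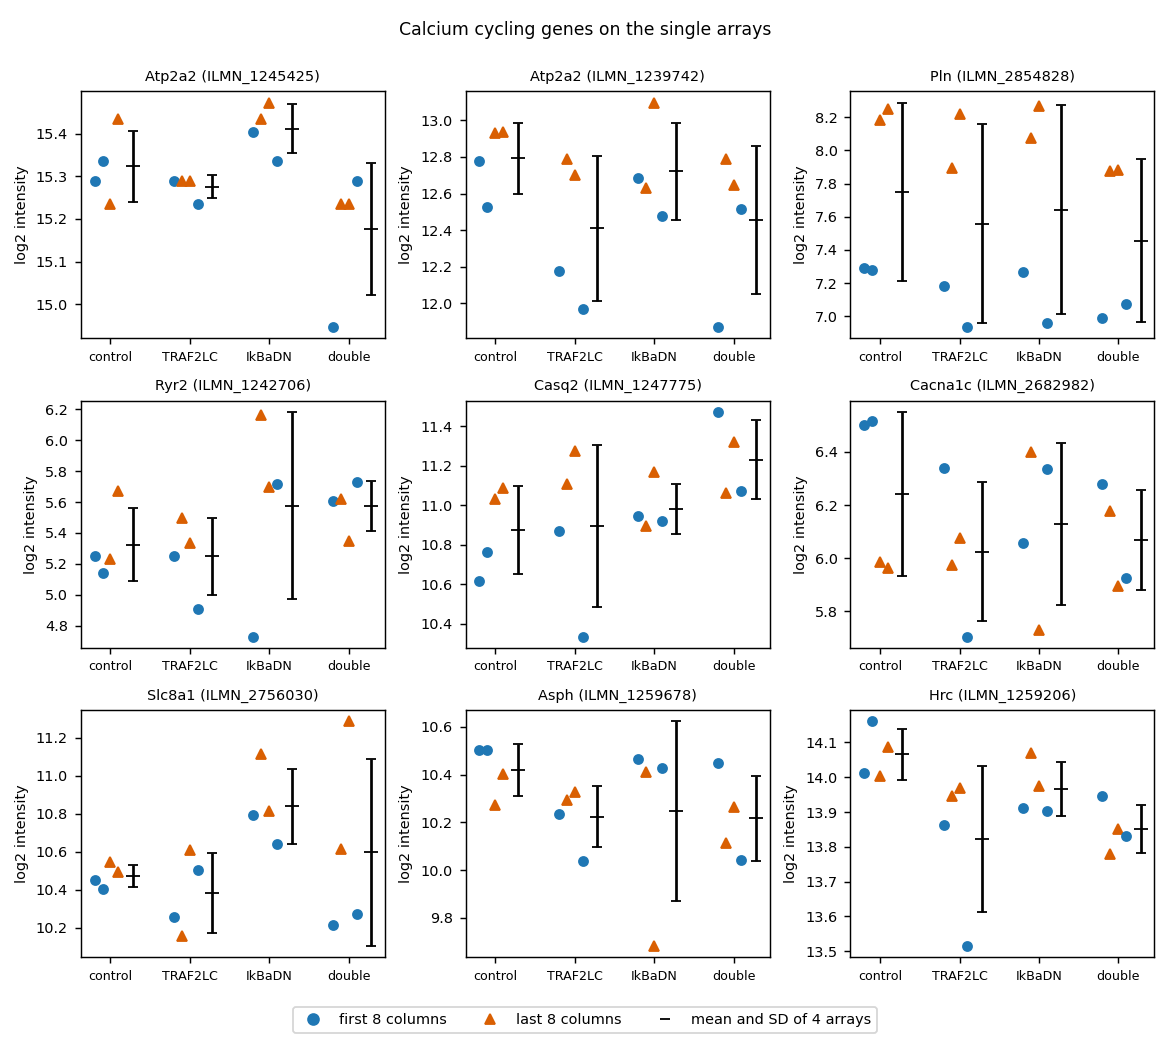
Log2 intensity of 9 probes of the 8 detected calcium cycling genes on the single arrays, by genotype, with symbols for arrays in the first 8 and in the last 8 signal columns. Bars give the mean and SD of 4 arrays, and each panel has its own vertical scale, which does not start at 0. The genotypes overlap in most panels, while the Pln values fall into separate levels by column position in every genotype.

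The promoters of Pln, Casq2, Hrc and Slc8a1 are shown because each of these genes is read by 1 probe that was detected on all 16 arrays, and because a transgene that acts on NF-κB raises the question of which motifs lie there. The sequences are the 250 bases before the gene start in RefSeq for assembly GRCm38.p6, on the plus strand at chr10:53337436-53337685, chr3:102086165-102086414 and chr7:45335019-45335268 and, for Slc8a1, on the minus strand at chr17:81738388-81738637. Capitals mark every match on either strand to the motifs searched.
Pln: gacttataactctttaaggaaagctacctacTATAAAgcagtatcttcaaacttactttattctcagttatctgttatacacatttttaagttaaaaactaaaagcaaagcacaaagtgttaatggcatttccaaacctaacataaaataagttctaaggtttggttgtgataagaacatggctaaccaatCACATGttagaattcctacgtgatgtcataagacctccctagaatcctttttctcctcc
Casq2: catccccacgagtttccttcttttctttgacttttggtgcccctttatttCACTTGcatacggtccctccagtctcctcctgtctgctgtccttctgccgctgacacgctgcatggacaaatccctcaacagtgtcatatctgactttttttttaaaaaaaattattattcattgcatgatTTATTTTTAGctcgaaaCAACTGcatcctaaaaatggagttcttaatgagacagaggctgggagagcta
Hrc: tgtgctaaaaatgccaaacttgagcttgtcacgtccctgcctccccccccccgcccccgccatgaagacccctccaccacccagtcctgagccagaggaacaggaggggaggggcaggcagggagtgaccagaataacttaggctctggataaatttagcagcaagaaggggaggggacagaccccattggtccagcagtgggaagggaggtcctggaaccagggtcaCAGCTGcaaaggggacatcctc
Slc8a1: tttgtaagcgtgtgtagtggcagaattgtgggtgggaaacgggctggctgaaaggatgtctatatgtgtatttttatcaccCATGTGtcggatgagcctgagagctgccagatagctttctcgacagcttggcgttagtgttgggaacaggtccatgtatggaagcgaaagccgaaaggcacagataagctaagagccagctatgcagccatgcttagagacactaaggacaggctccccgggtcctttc
The motifs were the E-box CANNTG, the TATA motif TATAAA, and, by name, the MEF2 site, the CArG box and the kappaB site. In Pln the TATA motif lies 219 to 214 bases before the start and an E-box 59 to 54. Casq2 holds E-boxes at 200 to 195 and 52 to 47 and a MEF2 site at 69 to 60, while Hrc holds an E-box at 22 to 17 and Slc8a1 one at 169 to 164. Of 32851 RefSeq promoter windows of this length, 66.2% hold an E-box, 12.4% the TATA motif, 2.92% a MEF2 site, 1.47% a CArG box and 7.25% a kappaB site. These letters hold no match to the kappaB site in the 4 windows printed, which says nothing of NF-κB binding.

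Atp2a2 encodes SERCA2, the calcium pump of the sarcoplasmic reticulum, and lies at chr5:122453513-122502225 of GRCm38.p6. Its brighter probe (ILMN_1245425) gave log2 intensities of 15.29, 15.34, 15.24 and 15.43 in the control hearts and 15.29, 15.29, 15.29 and 15.24 in the TRAF2LC hearts. It gave 15.40, 15.43, 15.47 and 15.34 in the IkBaDN hearts and 14.95, 15.24, 15.24 and 15.29 in the double transgenic hearts. The 4 IkBaDN values lay above all TRAF2LC and all double transgenic values, and double transgenic replicate 1 was the lowest array. Of all probes, 9.34% had no overlap in TRAF2LC against IkBaDN and 2.92% in double transgenic against IkBaDN. The differences were -0.14 ± 0.10 (log2 change ± SE, n = 4 per genotype, limma adjusted p = 0.538) for TRAF2LC against IkBaDN and -0.24 ± 0.10 (adjusted p = 0.847) for double transgenic against IkBaDN.

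This probe ranked between 2 and 14 in brightness on every array, and quantile normalization, which replaces a value by the mean for its rank, left it with only 7 distinct values over the 16 arrays. On the deposited scaled intensities, which are on a linear scale, the control hearts averaged 42200 ± 2750 and the TRAF2LC hearts 38100 ± 3510, while IkBaDN hearts averaged 50500 ± 9290 and hearts with both transgenes 36300 ± 5940 (SD, n = 4 each). On the log2 of those values the IkBaDN differences were larger. They were -0.39 ± 0.14 for TRAF2LC against IkBaDN (adjusted p = 0.155, limma) and -0.48 ± 0.14 for double transgenic against IkBaDN (adjusted p = 0.525, limma). Again neither passed. The highest scaled value, 63900 in IkBaDN replicate 2, was on the array with the lowest mean signal, 129. The lowest, 27900 in double transgenic replicate 1, was on the array with the highest mean signal, 375. Arrays between these did not follow a strict order, and the part of the scaling in the differences was not tested.

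The second Atp2a2 probe (ILMN_1239742) read 12.78, 12.53, 12.93 and 12.94 in control hearts, 12.18, 12.79, 12.70 and 11.97 in TRAF2LC, 12.69, 12.63, 13.10 and 12.48 in IkBaDN, and 11.87, 12.79, 12.65 and 12.52 in double transgenic hearts. The low values were TRAF2LC replicates 1 and 4 and double transgenic replicate 1, and every pair of genotypes overlapped. It stood at -0.38 ± 0.21 in TRAF2LC (adjusted p = 0.571) and -0.34 ± 0.21 in double transgenic hearts (adjusted p = 0.621) against control in the limma fit. The 95% intervals of these ratios ran from 0.562 to 1.05 and from 0.58 to 1.08. With the column position described for Pln below as a block, the changes stayed as they were with an SE of 0.15 each (unadjusted p = 0.0203 and 0.0373, adjusted p = 0.274 and 0.335, limma). With the runs of numbers in the sample descriptions as a block, the double transgenic change was -0.65 ± 0.16 (adjusted p = 0.0714, limma). That fit does not separate the double transgenic genotype from the column position, as set out for Pln below.

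Pln encodes phospholamban, the inhibitor of the pump, and lies at chr10:53337686-53345999. Its probe read 7.29, 7.28, 8.18 and 8.25 in control hearts and 7.18, 7.90, 8.22 and 6.94 in TRAF2LC hearts. It read 7.27, 8.07, 8.27 and 6.96 in IkBaDN hearts and 6.99, 7.88, 7.88 and 7.07 in double transgenic hearts. Each genotype thus had 2 arrays near 7 and 2 near 8, and all genotypes overlapped. The mean of the control hearts was 7.75 ± 0.54 and that of the TRAF2LC hearts 7.56 ± 0.60, beside 7.64 ± 0.63 for IkBaDN and 7.46 ± 0.49 for double transgenic hearts (SD, n = 4). The ratio to control had a 95% interval of 0.524 to 1.46 in TRAF2LC and 0.488 to 1.36 in double transgenic hearts, the widest ranges among the single-probe genes.

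The levels of Pln followed the position of the array in the deposited table. The first 8 signal columns hold 2 arrays of each genotype and the last 8 hold the other 2, and the headers do not say what separates them. Pln ranged from 6.94 to 7.29 in the first 8 columns and from 7.88 to 8.27 in the last 8, without overlap. The difference was 0.96 ± 0.08 on the log2 scale, a 1.94-fold difference (limma, adjusted p = 2.38e-06), and only 12 of the 9449 tested probes had a larger one. Over all probes 13.1% differed between the 2 sets of columns, 6.71% higher and 6.36% lower in the last 8, and among the members 5 of 15 did. Besides Pln, the second Atp2a2 probe was higher in the last 8 columns by 0.44 ± 0.11 (adjusted p = 0.0126, limma), as was Asph ILMN_1233759 by 0.42 ± 0.10 (adjusted p = 0.0144, limma). Asph ILMN_2606990 and ILMN_2610810 were lower there, with differences of -0.33 ± 0.08 and -0.58 ± 0.12 (limma, adjusted p = 0.0162 and 0.00704).

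**Figure D2:**
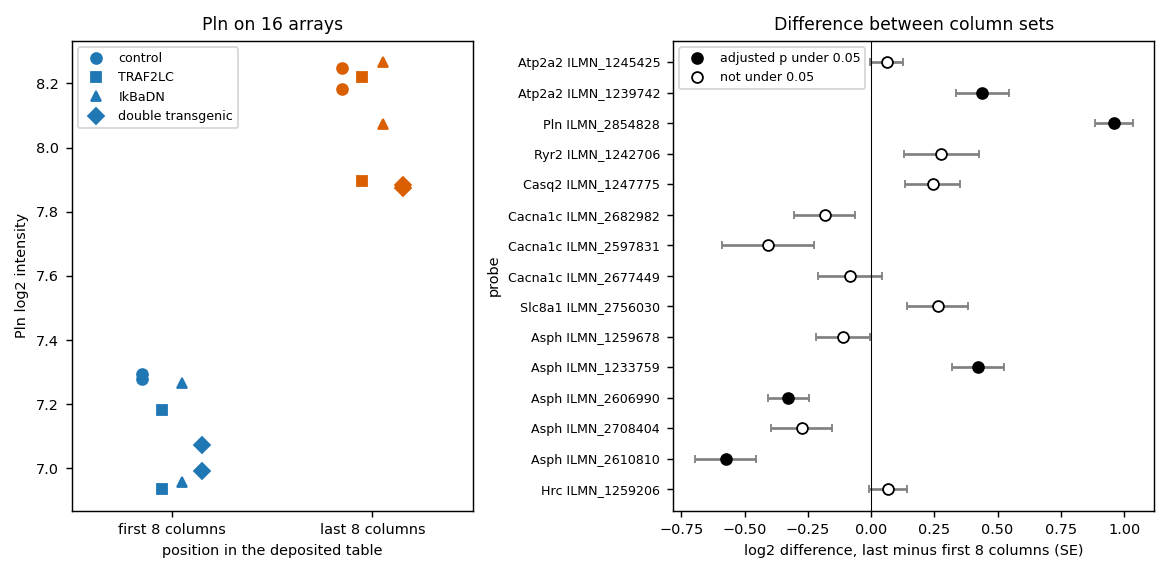
Left, Pln log2 intensity on the 16 arrays by position of the column in the deposited table, with a symbol for each genotype; the vertical axis does not start at 0. Right, difference between the last and first 8 columns for the 15 tested member probes with its standard error. Pln has the largest difference of the members, 0.96, and the 2 column levels do not overlap in any genotype.

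Since the genotypes are balanced over the column sets, a fit with the column set as a block left the Pln changes as they were and lowered their error. Against control Pln then stood at -0.29 ± 0.11 in double transgenic hearts (limma, adjusted p = 0.231). Within the first 8 columns this difference was -0.25 and within the last 8 it was -0.34. In the same sets TRAF2LC against control gave -0.23 and -0.16, and IkBaDN against control -0.17 and -0.04. Of the 15 member probes, 4 had opposite signs in the 2 sets in each comparison with control. With the 3 runs of numbers in the sample descriptions as a block the double transgenic change of Pln was -0.85 ± 0.20 (limma, adjusted p = 0.0628). But these runs are not balanced over the genotypes: 1 run holds 0 double transgenic arrays and another 3 of the 4. The run with 0 double transgenic arrays lies wholly in the first 8 columns. Outside it, only double transgenic replicates 1 and 4 lie in the first 8 columns. That fit therefore does not separate the double transgenic genotype from the column position.

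Casq2 encodes calsequestrin 2, the main calcium buffer of the cardiac store, and lies at chr3:102086415-102146514. It read 10.62, 10.76, 11.03 and 11.09 in control, 10.87, 11.11, 11.28 and 10.33 in TRAF2LC, 10.94, 10.89, 11.17 and 10.92 in IkBaDN, and 11.47, 11.06, 11.32 and 11.07 in double transgenic hearts. The double transgenic values were mostly the high ones, and their lowest array, 11.06, fell below the highest control array. The difference of 0.36 ± 0.18 between double transgenic and control hearts had an adjusted p of 0.487 in the limma fit, with a 95% interval of the ratio from 0.99 to 1.66. With the column sets as a block it stayed at 0.36 ± 0.15 (adjusted p = 0.328, limma). With the runs of description numbers as a block, which does not separate this genotype from the column position, it was 0.18 ± 0.16.

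Hrc encodes the histidine-rich calcium-binding protein, which sits in the store and binds triadin and the pump, and lies at chr7:45335269-45338973. It read 14.01, 14.16, 14.003 and 14.09 in control, 13.86, 13.95, 13.97 and 13.52 in TRAF2LC, 13.91, 14.07, 13.97 and 13.90 in IkBaDN, and 13.95, 13.78, 13.85 and 13.83 in double transgenic hearts. All TRAF2LC and all double transgenic arrays lay below the 4 control arrays, while IkBaDN overlapped with them. Separation of this kind was seen for 7.08% of all probes in TRAF2LC against control and for 8.49% in double transgenic against control. The differences were -0.24 ± 0.11 (adjusted p = 0.427) and -0.21 ± 0.11 (adjusted p = 0.498) in the limma fit. Hrc was the single member probe without overlap in each of these comparisons. Without TRAF2LC replicate 4, whose 13.52 was the lowest value, the TRAF2LC difference was -0.14.

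Asph, at chr4:9449085-9669344, encodes through alternative splicing the aspartate beta-hydroxylase and the store proteins junctin and junctate. It has 14 probes here, of which 3 were detected on all 16 arrays, 1 on 8, 1 on 7, 1 on 2 and 2 on 1, and 6 on 0. The probe table assigns the brightest probe to a different RefSeq transcript record than the other Asph probes. Which product each probe reads was not determined, because the probe table gives no probe position. The brightest probe (ILMN_1259678) read 10.50, 10.51, 10.27 and 10.40 in control, 10.24, 10.29, 10.33 and 10.04 in TRAF2LC, 10.46, 10.41, 9.68 and 10.43 in IkBaDN, and 10.45, 10.12, 10.26 and 10.04 in double transgenic hearts. IkBaDN replicate 3 stood apart at the low end, and all genotypes overlapped. Against control this probe lay at -0.20 ± 0.16, -0.17 ± 0.16 and -0.20 ± 0.16 in TRAF2LC, IkBaDN and double transgenic hearts, and the IkBaDN value turned to 0.0136 without replicate 3.

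Another Asph probe, ILMN_1233759, pointed the other way. It read 6.75, 7.40, 7.56 and 7.63 in control, 7.06, 7.72, 7.68 and 7.48 in TRAF2LC, 7.51, 7.70, 8.13 and 7.56 in IkBaDN, and 7.42, 7.89, 8.07 and 7.81 in double transgenic hearts. The lowest array was control replicate 1 and the highest IkBaDN replicate 3, the array on which the brightest probe was lowest. Its difference of 0.46 ± 0.21 between double transgenic and control hearts had an adjusted p of 0.436 in the limma fit, the lowest of the members in that comparison. With the column sets as a block this difference stayed at 0.46 ± 0.15 (adjusted p = 0.164, limma). With the runs of description numbers as a block, which does not separate this genotype from the column position, it was 0.19 ± 0.18. The third probe seen on every array, ILMN_2606990, had genotype means of 7.39, 7.52, 7.61 and 7.49 in control, TRAF2LC, IkBaDN and double transgenic hearts. ILMN_2708404 was detected on 3 control, 2 TRAF2LC, 0 IkBaDN and 2 double transgenic arrays, and ILMN_2610810 on 1, 2, 2 and 3 arrays in the same order. No direction is therefore given for Asph as a gene.

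**Figure D3:**
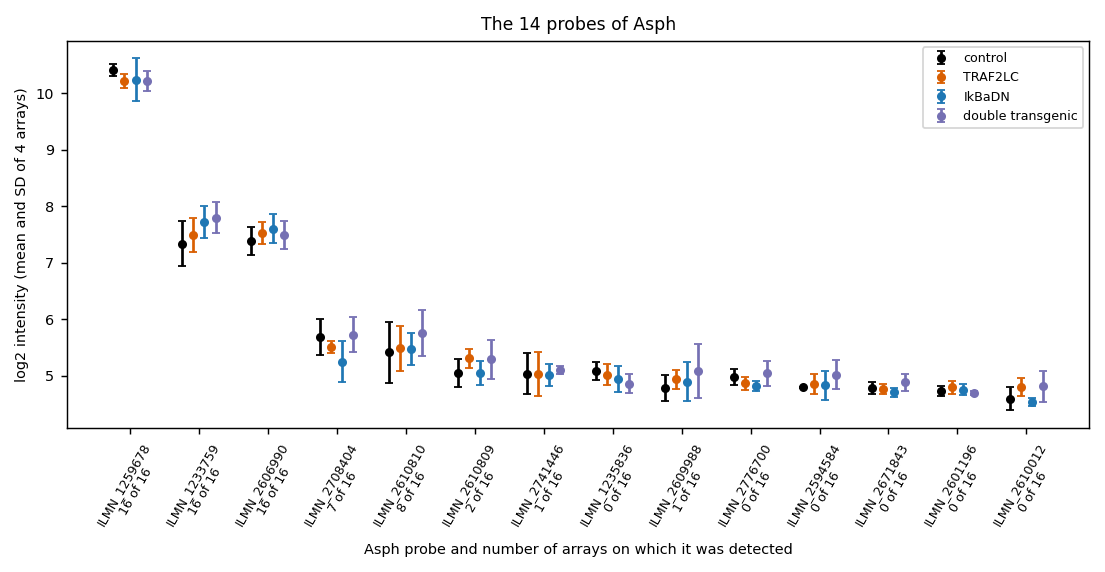
Log2 intensity of the 14 Asph probes by genotype, as the mean and SD of 4 arrays, with the number of arrays on which each was detected under its name; the vertical axis does not start at 0. The 3 probes detected on all 16 arrays stand apart from the others, and 6 probes were detected on 0 arrays.

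Ryr2 encodes the cardiac ryanodine receptor, the release channel of the store, and lies at chr13:11553099-12106945. Its probe was close to the detection limit and was detected on 6 arrays, 1 control, 0 TRAF2LC, 2 IkBaDN and 3 double transgenic. It read 5.25, 5.14, 5.23 and 5.67 in control, 5.25, 5.50, 5.33 and 4.91 in TRAF2LC, 4.73, 6.16, 5.70 and 5.72 in IkBaDN, and 5.60, 5.62, 5.35 and 5.73 in double transgenic hearts. The IkBaDN hearts held both the lowest and the highest array. The smallest adjusted p among its pairwise comparisons was 0.529, for TRAF2LC against IkBaDN (limma), and no fold is given against TRAF2LC, where the probe was not detected. A change of this transcript was thus not measurable with this probe, and the same holds for Trdn (triadin, chr10:33083483-33476709), which anchors calsequestrin to the channel, and Fkbp1b (FKBP12.6, chr12:4833176-4841573), which binds the channel.

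Cacna1c encodes the pore-forming subunit of the L-type channel and lies at chr6:118587240-119197384. Its brightest probe (ILMN_2682982), detected on 15 arrays, read 6.50, 6.52, 5.98 and 5.96 in control, 6.34, 5.98, 6.08 and 5.70 in TRAF2LC, 6.06, 6.40, 5.73 and 6.34 in IkBaDN, and 6.28, 6.18, 5.89 and 5.92 in double transgenic hearts. The genotypes overlapped throughout, and the 3 differences from control lay between -0.22 and -0.11 with an SE of 0.18 each. Within the first 8 columns they were -0.49, -0.31 and -0.41 in TRAF2LC, IkBaDN and double transgenic hearts. Within the last 8 columns they were 0.05, 0.09 and 0.06. ILMN_2597831 was detected on 3 control arrays and on 2 of each other genotype. ILMN_2677449 was detected on 2 control and 2 double transgenic arrays and on 0 TRAF2LC and 0 IkBaDN arrays. For that probe the double transgenic arrays lay above all TRAF2LC arrays, as for 9.98% of all probes in that comparison, and its adjusted p was 0.143 there and 0.24 in TRAF2LC against control (limma). These were the lowest values of the members in both comparisons. The fourth Cacna1c probe was detected on 0 arrays.

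Slc8a1 encodes the sodium-calcium exchanger NCX1 and lies at chr17:81373105-81738387. It read 10.45, 10.41, 10.55 and 10.49 in control, 10.26, 10.16, 10.61 and 10.50 in TRAF2LC, 10.79, 11.11, 10.81 and 10.64 in IkBaDN, and 10.21, 10.62, 11.29 and 10.27 in double transgenic hearts. The 4 IkBaDN arrays lay above all control and all TRAF2LC arrays, and the double transgenic arrays spread over the whole range. Against control the IkBaDN difference was 0.37 ± 0.19 (adjusted p = 0.698, limma), a ratio of 1.29 with a 95% interval from 0.977 to 1.70. TRAF2LC against IkBaDN gave -0.46 ± 0.19 (adjusted p = 0.229, limma), a ratio of 0.728 with an interval from 0.551 to 0.961, and the lowest adjusted p of the members in that comparison. Separation without overlap was seen for 5.14% of all probes in IkBaDN against control and for 9.34% in TRAF2LC against IkBaDN. Double transgenic replicate 3, at 11.29, decided the sign against control: the difference was 0.12 with it and -0.11 without it.

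**Figure D4:**
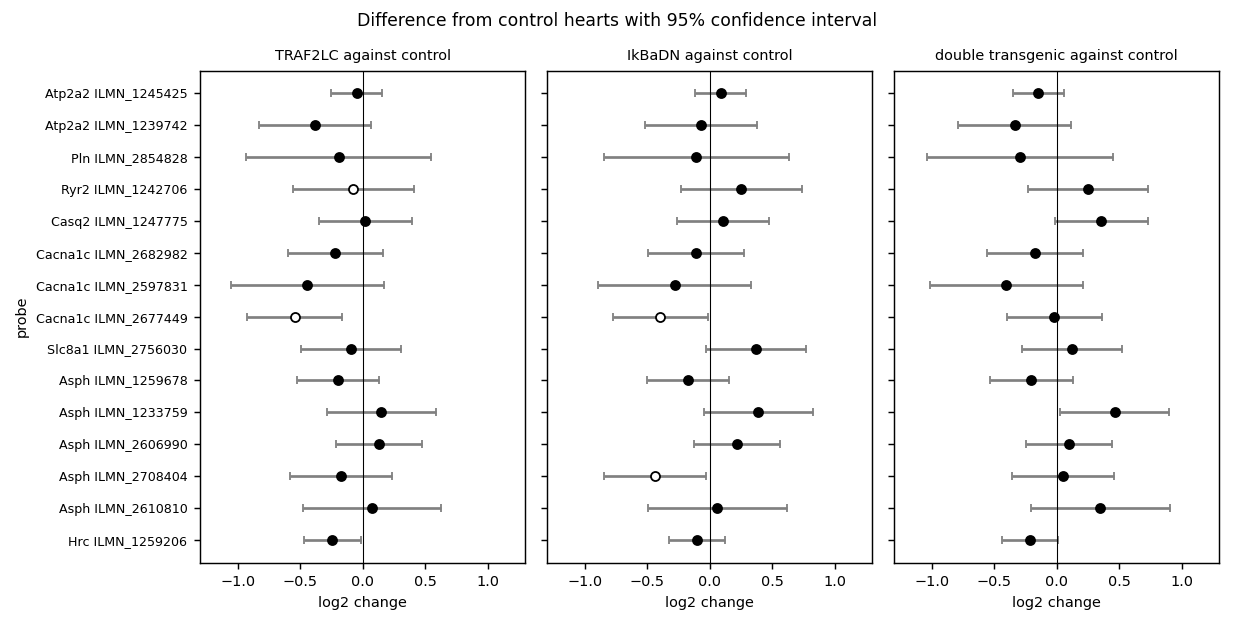
Log2 change from control hearts with its 95% confidence interval for the 15 tested member probes in TRAF2LC, IkBaDN and double transgenic hearts. Open circles mark probes that were detected on 0 arrays of 1 of the compared genotypes; the interval of Pln is the widest of the probes detected on all 16 arrays.

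By the brightest probe of each gene, and leaving out Ryr2, which was detected on 0 TRAF2LC arrays, 6 of 7 genes were lower in TRAF2LC than in control hearts, 4 in IkBaDN and 5 in double transgenic hearts. Asph is counted as lower in each through its brightest probe only, although no direction is given for it as a gene. Its probes ILMN_1233759 and ILMN_2606990, detected on all 16 arrays, were higher in each of these comparisons. The median changes over the 7 genes were -0.19, -0.10 and -0.17. Over all 15 member probes they were -0.17, -0.07 and -0.02, so the double transgenic median depends on whether the further probes of a gene are counted. Over all tested probes they were -0.01, -0.01 and 0.00, and 52.4%, 52.3% and 49.7% of these probes were lower. With median scaling, under which the median of all probes was 0.13, -0.23 and 0.11, the genes lower were 5, 6 and 5 of the 7. Against TRAF2LC, 3 of the 7 were lower in double transgenic hearts, with a gene median of 0.03 and a probe median of 0.05 beside 0.01 over all probes. Against IkBaDN, 6 were lower in double transgenic hearts (gene median -0.11, probe median -0.06, beside 0.02) and 7 in TRAF2LC hearts (-0.11 and -0.14 beside 0.00). With median scaling, under which the median of all probes was 0.35 and 0.36 there, only 1 and 2 of the 7 were lower. In the interaction, the double transgenic change less the sum of both single changes, the median over the 15 probes was 0.13 beside 0.02, and its lowest adjusted p was 0.339 (limma, Cacna1c ILMN_2677449). In double transgenic against IkBaDN the lowest was 0.847, and the bright Atp2a2 probe was the 1 member without overlap, where 2.92% of all probes had none.

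A single array weighed on the TRAF2LC counts. TRAF2LC replicate 4 was the lowest array of its genotype for 7 of the 8 genes, with a median of -0.47 relative to the control means, while the other TRAF2LC arrays had medians between -0.13 and -0.01. It also had the most probes detected of all arrays, 9397, and its part in the result was measured by leaving it out. Without it, 5 of the 7 genes were lower in TRAF2LC than in control hearts and 4 lower than in IkBaDN hearts, and the medians over genes moved from -0.19 to -0.11 and from -0.11 to -0.0013. Against TRAF2LC, 5 instead of 3 genes were then lower in double transgenic hearts.

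For orientation, the order of the genotype means differed from gene to gene. IkBaDN hearts had the highest mean for Slc8a1 and for the bright Atp2a2 probe, and control hearts for Pln, Hrc and the brightest probes of Asph and Cacna1c. Double transgenic hearts had the highest mean for Casq2. In no gene did any pair of genotypes, neighbours in the order included, differ at an adjusted p under 0.05.

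Each member was set beside the 6894 other named genes for likeness over the 16 arrays, which share their normalization, by Pearson's r as a description. Closest to Atp2a2 were Ankle2, the cardiac actin gene Actc1 and Fto, with r of 0.845, 0.842 and 0.814. Casq2 was closest to the myosin light chain gene Myl6, Jagn1 and Mrpl58 (r of 0.911, 0.898 and 0.887), and Hrc to the cell cycle inhibitor gene Cdkn1c, Rbfox1 and Magix (0.857, 0.823 and 0.823). Closest to Slc8a1 were Edc4, Trim40 and the lipoprotein lipase gene Lpl (0.765, 0.753 and 0.744), and to Asph Mcat, Kyat3 and Dcaf4 (0.841, 0.788 and 0.767). The dim probes of Ryr2 and Cacna1c were closest to Myo1c, Vars and Tbxa2r and to Tmem82, Ybx3 and Nipsnap2, with r between 0.798 and 0.83. For Pln, whose arrays form separate levels, r within the column sets was 0.447 with Acin1, 0.517 with the myoglobin gene Mb and 0.349 with Il1r1, the genes closest over all arrays.

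A wider list of 78 calcium handling genes was read beside the members, and 50 of the 67 with a probe were tested. It held 7 tested channel subunits, 7 genes of the dyad structure, 5 partners of the release channel, 14 kinases, phosphatases and their regulators, 6 genes of mitochondrial uptake and 11 others. In each comparison no more than 2 of the 50 passed an adjusted p of 0.05, where between 0.0106% and 3.43% of all probes passed. The median changes of the 50 genes lay between -0.05 and 0.07. The genes that passed were Cacna1h, a T-type channel gene, Camk2b, the beta isoform of the calcium and calmodulin dependent kinase, and Rcan1, an inhibitor of calcineurin whose transcription calcineurin itself raises.

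Cacna1h read 8.27, 8.23, 8.18 and 8.23 in control hearts and 7.85, 7.82, 7.53 and 7.26 in TRAF2LC hearts, without overlap, as for 7.08% of all probes. Cacna1h was the 1 gene of the list that passed in TRAF2LC against control, with a log2 change of -0.62 ± 0.13 (adjusted p = 0.0339, limma). By sign alone 28 of the 50 listed genes were lower there. Of all probes 0.296% passed as lower in that comparison. The call was lost when any 1 control array or TRAF2LC replicate 3 or 4 was left out, with adjusted p-values from 0.0829 to 0.108 by limma, and in 4 other alternatives, with a highest adjusted p of 0.699 under median scaling.

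Camk2b read 8.06, 8.0005, 7.62 and 7.82 in control, 7.86, 7.29, 7.74 and 7.08 in TRAF2LC, 6.88, 5.81, 7.15 and 6.72 in IkBaDN, where 3 of 4 arrays were detected, and 6.53, 6.42, 5.75 and 6.53 in double transgenic hearts. All arrays with the mutated IκBα except IkBaDN replicate 3 lay below all arrays without it. Camk2b was lower than control in IkBaDN hearts (log2 change -1.23 ± 0.26, adjusted p = 0.0439, limma) and in double transgenic hearts (-1.57 ± 0.26, adjusted p = 0.00476, limma). It was also lower in double transgenic than in TRAF2LC hearts (-1.19 ± 0.26, adjusted p = 0.0153, limma). Of all probes 0.19%, 0.349% and 1.59% passed as lower in these comparisons. The IkBaDN call did not hold in 16 of 24 alternatives, with an adjusted p of up to 0.148 (limma), while the double transgenic difference from control passed in 24 of 24. The difference of double transgenic from TRAF2LC hearts was lost in 3 of 24, with adjusted p-values of 0.0566 with the runs as a block and 0.0515 and 0.0614 without TRAF2LC replicate 1 and double transgenic replicate 3 (limma).

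Rcan1 (ILMN_2701991) read 10.57, 10.56, 10.52 and 10.45 in control, 11.03, 10.93, 10.86 and 11.33 in TRAF2LC, 10.57, 10.22, 10.57 and 10.37 in IkBaDN, and 10.25, 10.51, 10.66 and 10.59 in double transgenic hearts. The 4 TRAF2LC arrays were the 4 highest. Of all probes 7.08% had no overlap between TRAF2LC and control, 9.34% between TRAF2LC and IkBaDN and 9.98% between TRAF2LC and double transgenic arrays. Rcan1 was higher in TRAF2LC than in IkBaDN hearts by 0.60 ± 0.13 (adjusted p = 0.0116, limma), where 1.99% of all probes passed as higher. It was lower in double transgenic than in TRAF2LC hearts (log2 change -0.53 ± 0.13, adjusted p = 0.026, limma), where 1.59% of all probes passed as lower. Against control the TRAF2LC difference of 0.51 ± 0.13 had an adjusted p of 0.0732 (limma). A second, dimmer Rcan1 probe (ILMN_1259180) did pass in that comparison, at 1.27 ± 0.24 (adjusted p = 0.0175, limma), and was higher in TRAF2LC than in IkBaDN hearts by 1.73 ± 0.24. It was also lower in double transgenic than in TRAF2LC hearts (log2 change -1.17 ± 0.24, adjusted p = 0.0125, limma). The double transgenic call of the brighter probe was lost in 7 of 25 alternatives, among them median scaling (limma, adjusted p = 0.615) and leaving out TRAF2LC replicate 4 (0.0823).

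None of the 50 passed in double transgenic against IkBaDN or in the interaction. At an unadjusted p under 0.05 they counted 2 and 1 genes, where the shares over all probes were 5.78% and 6.21%. The smallest p-values in double transgenic against IkBaDN were those of Cacna1g, another T-type channel gene (-0.47 ± 0.15, adjusted p = 0.801), Cacna1h (-0.29 ± 0.13) and Camk2g (-0.22 ± 0.12) in the limma fit. In the interaction they were those of Rcan1 (-0.44 ± 0.18, adjusted p = 0.774), Bin1 (0.42 ± 0.22) and Micu2 (-0.36 ± 0.20), again by limma.

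**Figure D5:**
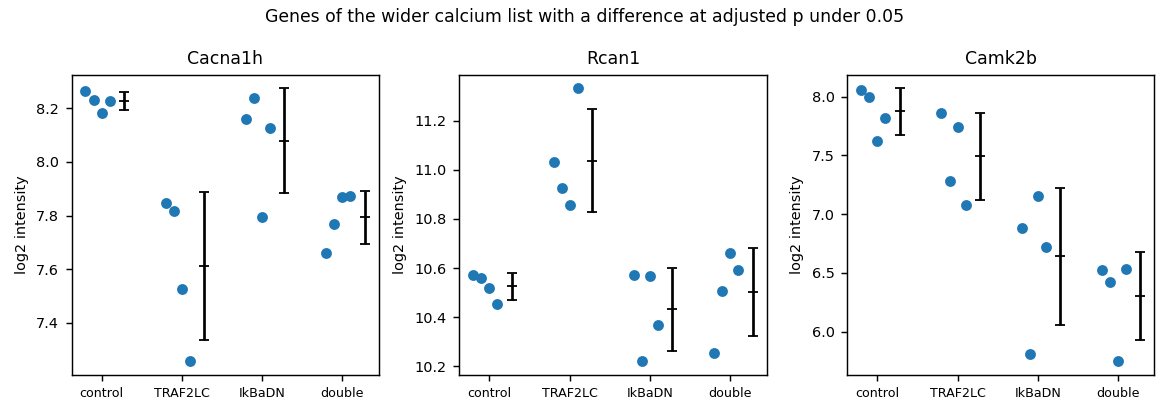
Log2 intensity of Cacna1h, Rcan1 and Camk2b on the single arrays by genotype, with the mean and SD of 4 arrays; each panel has its own vertical scale, which does not start at 0. All 4 TRAF2LC arrays lie below the control arrays for Cacna1h and above the arrays of the other genotypes for Rcan1, and the double transgenic arrays lie lowest on average for Camk2b.

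The tissue was checked against marker genes. Of 10 ventricular cardiomyocyte markers, 9 had a probe and all 9 were tested; 0 were called in any comparison of 2 genotypes, and their summed linear intensity ran from 172000 to 187000. Of the smooth muscle and pericyte markers 5 of 6 were tested, with sums of 11100 to 14800 in control and 10100 to 14000 in TRAF2LC hearts, beside 14000 to 25300 for IkBaDN and 20800 to 24100 for double transgenic hearts, and their part in the differences above was not tested. Acta2, the 1 gene of that list that passed, was higher in double transgenic hearts than in control (1.002 ± 0.19, adjusted p = 0.014) and TRAF2LC hearts (0.97 ± 0.19, adjusted p = 0.00678, limma). All 5 atrial cardiomyocyte markers were tested, with sums of 82500 to 84900 in control, 71500 to 87500 in TRAF2LC, 63900 to 77800 in IkBaDN and 64400 to 82400 in double transgenic hearts. Of them only Myl1, a myosin light chain gene counted as atrial in this list, passed in any comparison. It was lower in IkBaDN and double transgenic hearts than in control (-1.57 ± 0.16 and -1.32 ± 0.16) and than in TRAF2LC hearts. The 4 macrophage markers tested, of 6 with a probe, summed to 1300 to 1710 in control and 1710 to 3180 in TRAF2LC hearts, beside 1500 to 2040 for IkBaDN and 1550 to 1660 for double transgenic hearts. The part of these lists in the Camk2b and Rcan1 differences was not tested. The 4 lymphocyte and 5 skeletal muscle markers with a probe were below the detection rule. In whole-ventricle RNA, fewer cells of a type and less RNA per cell cannot be told apart. The average signal of an array lay between 129 and 375, the number of detected probes from 7948 to 9397, and the correlation between arrays from 0.953 to 0.99.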

How the data were processed

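Total RNA from 16 hearts was hybridized to single-colour Illumina arrays, 1 per heart, per the labels. The deposited table holds 1 background-subtracted intensity per probe and array (14378 of 25697 probes lie below 0 on at least 1 array) and a detection p-value. A second deposited table holds the same intensity values scaled by the authors by 1 factor per array to a mean of 276.1. BeadStudio and GenomeStudio are named without versions, per the submitters' processing notes.

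Here the intensities were corrected with nec (offset 16, limma 3.58.1, R 4.3.3), quantile normalized and log2 transformed. The 9449 probes detected (p under 0.01) on 4 or more of 16 arrays were tested in 1 limma fit of the 4 genotype means (12 residual and 4.53 prior degrees of freedom), with Benjamini-Hochberg adjustment within each of 7 comparisons and a threshold of 0.05, two-sided. The fit was tested on simulated data. Each gene is represented by its brightest tested probe. Of the wider list every gene that passed is named, or the 3 smallest p-values where none passed. Of the probes 23978 have 1 symbol and 1719 none here, and 23962 were matched to the RefSeq table of GRCm38.p6. The members and the lists were chosen with earlier results of these data known. The labels do not say how animals relate between arrays, so p-values measure the spread between these arrays, whose number limits the precision. Alternatives in background correction, scaling, filter, blocks and arrays were run.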

Additional observations from a re-analysis of the deposited data

Results flagged for a closer look

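In 5 of the 60 groups of 4 arrays examined, 1 array stood apart from the other 3 by Dixon's test; chance alone gives about 1 in 20. The bright Atp2a2 probe (ILMN_1245425) was at 15.24 (15.2356) in TRAF2LC replicate 4, where the other 3 arrays share 1 value of 15.29, and its 7 distinct values over all arrays bear on that gap. The same probe was at 14.95 (14.9459) in double transgenic replicate 1, where the nearest array lay at 15.24. IkBaDN replicate 3 was the low array for 3 probes of Asph: ILMN_1259678 at 9.68 (9.68173) with the nearest array at 10.41, ILMN_2606990 at 7.22 (7.22095) with the nearest at 7.70, and ILMN_2708404 at 4.70 (4.70135) with the nearest at 5.39. The mean signal of that array, 204, was the lowest but 1 of the 16. Without it, the difference of the first of these probes between IkBaDN and control hearts went from -0.17 to 0.0136.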

How the results depend on the processing

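0 of the tested member probes passed under any alternative: over 2568 recomputed changes of the 15 probes the lowest adjusted p was 0.0628 (limma, Pln with the runs of description numbers as a block). Of the 1378 among them that belong to the brightest probes of the 8 genes, 88 changed sign. Under median scaling the median change of all probes was 0.13, -0.23, 0.11, -0.01, 0.35 and 0.36 in TRAF2LC, IkBaDN and double transgenic against control, double transgenic against TRAF2LC and against IkBaDN, and TRAF2LC against IkBaDN. On the authors' scale it was 0.11 in each of the last 2. Under median scaling IkBaDN against control turned to -0.14 for Casq2. Double transgenic against IkBaDN turned to 0.15 for Hrc, 0.15 for Slc8a1, 0.36 for Asph, 0.22 for Pln, 0.24 for Cacna1c and 0.24 for Ryr2, and TRAF2LC against IkBaDN to 0.083 for Hrc, 0.30 for Casq2, 0.39 for Asph, 0.35 for Pln and 0.21 for Cacna1c. Less the median change of all probes under median scaling, these 12 changes lie between -0.28 and 0.09, 9 of them below 0. A further 3 of the 15 sign changes under median scaling moved by less than 1 SE. With the runs as a block, a fit that does not separate double transgenic hearts from the column position, the Pln interaction turned to -0.55. The cause was not tested.

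Leaving out 1 array moved IkBaDN against control for Asph from -0.25 to 0.0136 (positive without IkBaDN replicate 3), Slc8a1 in double transgenic against control from -0.11 to 0.25 and against TRAF2LC from -0.0154 to 0.34 (negative without double transgenic replicate 3), and Casq2 in TRAF2LC against IkBaDN from -0.21 to 0.10 (positive without TRAF2LC replicate 4).

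Of 24 same-numbered pairs of arrays 16 had deviations correlated over 0.1 (range -0.293 to 0.405), with a median of 0.251 beside -0.115 for other pairs, and 7 of 16 arrays were closest to an array of their own number. Since not every pair passed 0.1 and the labels name no shared animal or batch, the numbers were not taken as pairs. No member passed with the replicate block, where the lowest adjusted p was 0.0937 (limma, Cacna1c ILMN_2677449 in double transgenic against TRAF2LC) and that of Slc8a1 in TRAF2LC against IkBaDN was 0.169, and the interaction calls went from 2 to 4 probes.

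Calls over all probes moved more. TRAF2LC against control had 98, and 54 without the filter, 60 with detection on all 16 arrays, 34 with only the compared genotypes and 40 to 97 with 1 array left out. IkBaDN against control had 42, and 18 with median scaling, 24 with only the compared genotypes and 21 to 46 with 1 array left out. Double transgenic against control had 80, and 26 with median scaling, 128 with the column sets as a block, 53 with only the compared genotypes and 42 to 93 with 1 array left out. Double transgenic against TRAF2LC had 275, and 120 with median scaling, 155 with only the compared genotypes and 185 to 306 with 1 array left out. Double transgenic against IkBaDN had 1, and 3 with median scaling, 0 with detection on all 16 arrays, 2 with only the compared genotypes and 1 to 4 with 1 array left out. TRAF2LC against IkBaDN had 324, and 573 with median scaling, 126 with only the compared genotypes and 205 to 314 with 1 array left out. The interaction had 2, and 4 without background correction, 4 with median scaling, 5 on the authors' scale, 5 with the column sets as a block and 2 to 11 with 1 array left out. Calls higher and lower in TRAF2LC against control were 70 and 28, 67 and 3 with median scaling and 70 and 9 on the authors' scale. IkBaDN against control had 24 and 18, and 7 and 11 with median scaling. Double transgenic against control had 47 and 33, 19 and 7 with median scaling and 49 and 21 on the authors' scale. Double transgenic against TRAF2LC had 125 and 150, and 35 and 85 with median scaling. TRAF2LC against IkBaDN had 188 and 136, 549 and 24 with median scaling and 274 and 72 on the authors' scale.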
